A study of Mus musculus with 8 samples.

Results

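The Cmtm family genes are described here, in whole testes with or without a germ cell deletion of Spdya. The members are the 8 genes named Cmtm1, Cmtm2a, Cmtm2b, Cmtm3, Cmtm4, Cmtm6, Cmtm7 and Cmtm8, and all 8 were found by name among the 54532 genes of the expression table. The family was selected on a readout of these same libraries, since Cmtm2b belongs to the genes that the study listed as different between the genotypes. The difference between the genotypes is therefore given for each member as a description, and no member's p-value is given.

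RNA-Seq libraries came from 8 male mice, 1 library each: 4 of the Sync-Spdya fl/fl genotype (the controls) and 4 of the Sync-Spdya cKO genotype. Both groups carried floxed Spdya alleles and received the same treatments: an inhibitor of retinoic acid synthesis as neonates, then retinoic acid (RA) to restart spermatogenesis in synchrony, then tamoxifen at RA7.5 and RA8.5 by the sample labels (the text of the study gives slightly earlier times). The testes were collected at RA11.5, counted in days from the RA injection, when the study describes the spermatocytes as mid-late pachytene. In Sync-Spdya cKO mice tamoxifen activated Ddx4-CreERT2, a Cre expressed in germ cells, which removed exon 2 of Spdya; the controls were littermates with the floxed alleles. The somatic cells of the testis, which this Cre does not target, contributed RNA to every library.

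Genes of this family encode small proteins that cross the membrane several times through a MARVEL domain, a fold also found in proteins of vesicle traffic and tight junctions. Cklf, the chemokine-like factor that gives the family its name, lies beside the cluster on mouse chromosome 8. CMTM6 and CMTM4 are known for keeping the immune checkpoint ligand encoded by Cd274 at the cell surface, and CMTM3, CMTM7 and CMTM8 have been linked to the endocytosis or signalling of the epidermal growth factor receptor. CMTM1 and CMTM2 are known as testis-enriched members, and the mouse has a pair of Cmtm2 genes.

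The members lie at 2 loci of GRCm38. On chromosome 8 the order is Cklf, Cmtm2a, Cmtm1, Cmtm2b, Cmtm3 and Cmtm4. Cmtm2a (ENSMUSG00000074127, 104281042 to 104293181, minus strand) overlaps the 3′ end of Cmtm1 (ENSMUSG00000110430, 104292622 to 104310145, minus strand) by 560 bases. Cmtm2b (104322230 to 104330764, plus strand) starts 12084 bases beyond Cmtm1 and is followed after 8645 bases by Cmtm3 (104339410 to 104347672, plus strand), which is separated by 518 bases from the 3′ end of Cmtm4 (104348191 to 104395807, minus strand). On chromosome 9, Cmtm6 (114731116 to 114749344, plus strand), Cmtm7 (114756836 to 114781856, minus strand) and Cmtm8 (114789345 to 114844156, minus strand) follow each other with 7491 and 7488 bases between them.

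The promoter of Cmtm2b is shown first, because Cmtm2a and Cmtm2b were the members with the lowest log2 fold changes and their windows are near copies of each other. The sequence is the 250 bases before the gene's start, chr8:104321977-104322226 on the plus strand, 5′ to 3′, as RefSeq gives it for GRCm38.p6. Capitals mark the 5 bases that differ from the aligned window of Cmtm2a and the 1 base inside the alignment that is missing from it, and the 2 bases at the ends that have no partner there are left in lower case. The GENCODE vM21 annotation has no exon in the Cmtm2b window. The Cmtm2a window is chr8:104293182-104293431 on the minus strand, and all of its 250 bases lie in an exon of Cmtm1 that is annotated as untranslated region in 1 or more transcripts.
Cmtm2b: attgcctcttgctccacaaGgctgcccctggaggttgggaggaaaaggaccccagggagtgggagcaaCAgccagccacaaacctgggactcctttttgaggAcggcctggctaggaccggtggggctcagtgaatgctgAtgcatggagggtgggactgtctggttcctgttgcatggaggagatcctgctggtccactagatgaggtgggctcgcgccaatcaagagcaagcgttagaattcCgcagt
Of 247 aligned bases 242 were identical, with 5 mismatches and 1 base that was present in the Cmtm2b window alone. Extended to 50 bases past the start, the windows of this pair shared 291 of 300 bases (97.0%), whereas the next most alike pair among the 28 pairs of members, Cmtm3 and Cmtm6, shared 189 (63.0%). The sequence runs on opposite strands of the chromosome in the 2 genes.

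A few short motifs were looked for on both strands of the 300 bases around each start. The starts are those of RefSeq, which do not always match the gene coordinates given above. The Cmtm3 window (104340344 to 104340643) lies inside those coordinates, and the Cmtm7 window (114781944 to 114782243) lies wholly upstream of them. CCAAT was found once in Cmtm2a, beginning 35 bases before the start, once in Cmtm2b, beginning 32 bases before it, and in none of the other members, while 37.4% of all 32851 promoter windows hold it. GGGCGG was found in Cmtm2a, Cmtm3, Cmtm4, Cmtm6, Cmtm7 and Cmtm8 but not in Cmtm1 or Cmtm2b, and in 35.7% of all windows. AACNG was found 4 times in Cmtm2a, 4 times in Cmtm2b and in 7 of the 8 members, and in 80.3% of all windows. TGACGT and TATAAA were found in none of the 8 members, and in 7.51% and 13.6% of all windows. These matches describe letters in the windows and not bound sites. The Cmtm4 window had the highest GC content of the 8 (79.7%) and Cmtm1 the lowest (53.7%), against a median of 52.7% over all windows.

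Expression was measured as FPKM, in which a gene's fragments are divided by its length and by a scaled library size, so levels of different genes can be set side by side. Cmtm6 was the most abundant member, with 43.5 ± 13.4 FPKM in Sync-Spdya fl/fl and 41.7 ± 1.05 FPKM in Sync-Spdya cKO testes (mean ± SD, n = 4 here and below). The level of Cmtm6 in the fl/fl libraries was above that of 95.1% of 22046 protein-coding genes. It was followed by Cmtm3 (12.3 ± 1.73 and 17.7 ± 1.96 FPKM), Cmtm4 (9.81 ± 3.21 and 8.86 ± 0.675 FPKM), Cmtm2b (8.10 ± 3.28 and 3.42 ± 1.28 FPKM), Cmtm2a (6.89 ± 1.82 and 4.04 ± 1.62 FPKM), Cmtm7 (1.95 ± 0.308 and 2.30 ± 0.295 FPKM) and Cmtm8 (0.428 ± 0.0679 and 0.626 ± 0.123 FPKM). Cmtm1 was at or near 0 in every library.

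Neighbours in this order did not always differ beyond their spread. In the fl/fl libraries the values of Cmtm3 and Cmtm4, of Cmtm4 and Cmtm2b, and of Cmtm2b and Cmtm2a overlapped, and only Cmtm6, Cmtm7, Cmtm8 and Cmtm1 stood clear of the genes next to them. In the cKO libraries Cmtm2b and Cmtm2a overlapped, and every other pair of neighbours was separate, with Cmtm4 above Cmtm2b in all 4 libraries. Cmtm2b was above Cmtm2a in 3 of 4 fl/fl libraries and in 1 of 4 cKO libraries.

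**Figure D1:**
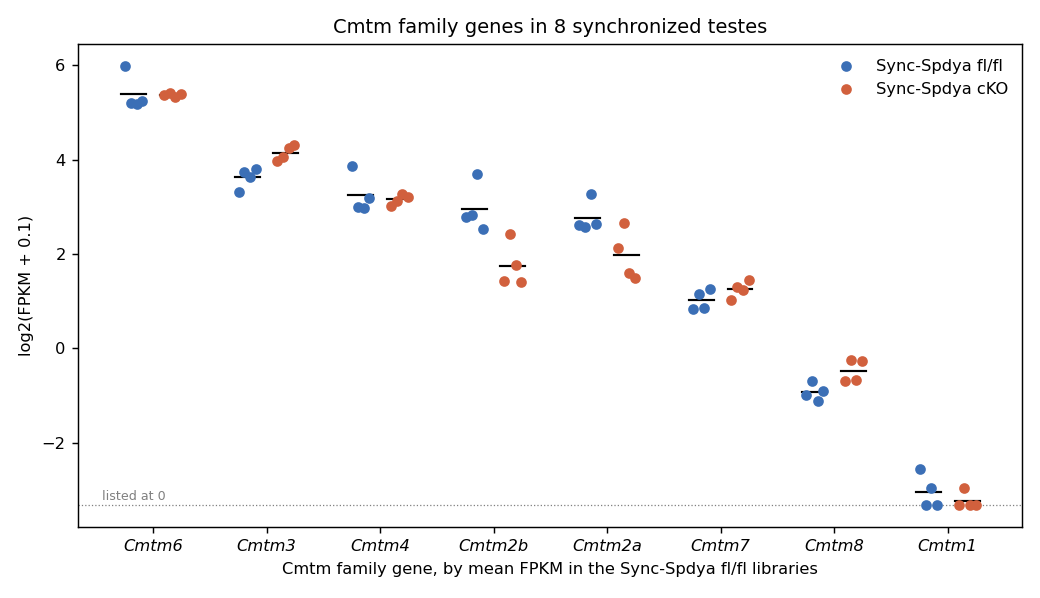
Level of each Cmtm gene as log2(FPKM + 0.1), 1 point per library (blue, Sync-Spdya fl/fl; orange, Sync-Spdya cKO; n = 4 each, replicates 1 to 4 from left to right), with the mean as a bar and genes ordered by mean FPKM in the fl/fl libraries. Cmtm2b lay lower and Cmtm3 higher in cKO libraries without overlap, and Cmtm1 lay at or near the line for genes listed at 0.

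A mean above 1 FPKM in both groups was needed for the test over all genes, which 6 of the 8 members passed (Cmtm1 and Cmtm8 did not) and which left 12141 protein-coding genes. A call needed a limma p, adjusted by Benjamini-Hochberg, below 0.05 and a change of more than 1 on the log2 scale, and 0 of the 6 members were called, beside 0.0165% of all genes tested. With voom on the recovered fragments 0 were called as well. With array weights 1 was, but that setting called 57 of the 12141 genes, against 2 in the main fit. The study made its calls with another method, DESeq2, at the same thresholds, and it listed more genes than the main fit called here. A member left uncalled here therefore does not speak against the study's list. At an unadjusted limma p below 0.05 the count of members was 2 lower and 1 higher, beside 5% of all genes that were lower and 5.89% that were higher. Every cKO library was below every fl/fl library in 1 member, Cmtm2b, beside 2.59% of all genes, and every cKO library was above every fl/fl library in 1 member, Cmtm3, beside 3.64%. These counts are no test of the family or of any member, since the family was chosen by this contrast. The median log2 fold change was -1.0 for the 2 tested testis-enriched members, 0.11 for the 4 others and 0.01 over all genes tested.

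Cmtm2b, a testis-enriched member, was the lowest relative to control. It had 6.76, 7.02, 12.9 and 5.69 FPKM in the controls (fl/fl replicates 1 to 4) and 2.58, 5.27, 3.30 and 2.54 FPKM in cKO replicates 1 to 4. Control replicate 3 stood highest and the groups did not overlap. The gap between the closest libraries was small, however: cKO replicate 2 had 74 fragments on the gene (95% Poisson limits 4.14 to 6.61 FPKM) and fl/fl replicate 4 had 82 (4.52 to 7.06 FPKM), and these limits, which cover counting error only, overlap. In all, 450 fragments were counted in the fl/fl and 205 in the cKO libraries. Its log2 fold change on the log2(FPKM + 0.1) scale was -1.21 (SE 0.29), and it ranged from -1.43 without cKO replicate 2 to -0.96 without fl/fl replicate 3.

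Cmtm2a, its paralog, had 6.0, 5.85, 9.61 and 6.09 FPKM in fl/fl replicates 1 to 4 and 4.26, 6.25, 2.94 and 2.73 FPKM in cKO replicates 1 to 4. Control replicate 3 was again the highest, and cKO replicate 2 lay above 3 of the fl/fl libraries, so the groups overlapped. Cmtm2a had a log2 fold change of -0.80 (SE 0.26), between -1.03 without cKO replicate 2 and -0.63 without fl/fl replicate 3, on 553 fragments in the fl/fl and 354 in the cKO libraries. The level of Cmtm2b relative to Cmtm2a was 1.13, 1.2, 1.35 and 0.933 in the fl/fl libraries and 0.606, 0.842, 1.12 and 0.931 in the cKO libraries, with overlap between the groups.

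Both genes of the pair were highest in replicate 3 of the fl/fl group and in replicate 2 of the cKO group. Both were lowest in cKO replicate 4, but the order of the remaining libraries differed. In fl/fl replicates 1, 2 and 4 Cmtm2a had 6.0, 5.85 and 6.09 FPKM and Cmtm2b 6.76, 7.02 and 5.69 FPKM. From cKO replicate 1 to 3, Cmtm2a went from 4.26 to 2.94 FPKM and Cmtm2b from 2.58 to 3.30 FPKM. Over the 8 libraries Pearson's r of log2(FPKM + 0.1) between Cmtm2a and Cmtm2b was 0.91, and 0.80 after the group means were removed. The difference between the genotypes and the scaling of each library enter the first value, so both are given as descriptions. Cmtm2a was the gene ranked 34 of 12141 by likeness to Cmtm2b, and Cmtm2b ranked 38 by likeness to Cmtm2a. The r of Cmtm2b with Cmtm3 was -0.74 over the 8 libraries and -0.16 within groups, and with Cmtm6 it was -0.08 and -0.20.

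**Figure D2:**
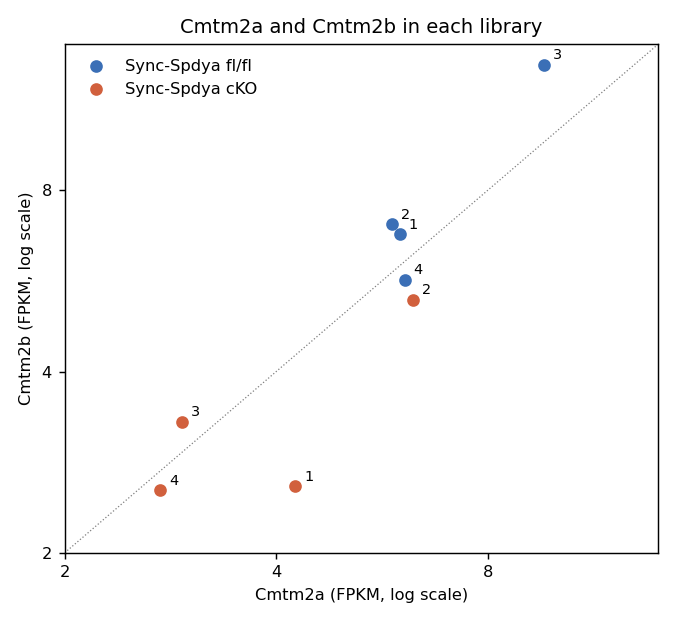
Cmtm2a against Cmtm2b in each library (FPKM, both axes logarithmic; blue, Sync-Spdya fl/fl; orange, Sync-Spdya cKO; numbers are replicates; the dotted line marks equal levels). The fl/fl replicate 3 is highest for both genes, at 9.61 and 12.9 FPKM, and cKO replicate 2 lies among the fl/fl libraries for Cmtm2a.

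The near copies at the promoter raise the question of whether fragments of the 2 genes can be told apart. In the longest coding transcript of Cmtm2b, 5.66% of 50-base windows were shared with another gene (Cmtm1 or Cmtm2a), and 0 of 731 windows of 150 bases were. Its 880 exonic bases overlap no other gene of the GENCODE vM21 annotation. In Cmtm2a, 41.4% of 50-base windows and 12.9% of 150-base windows were shared with another gene. Of its 1272 exonic bases 569 (44.7%) lie within exons of Cmtm1 or of Gm45711, a gene model on the same strand that joins exons of both.

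Cmtm1, the third testis-enriched member, had 2, 0, 1 and 0 fragments in the fl/fl libraries and 0, 1, 0 and 0 in the cKO libraries. A count of 3 fragments on Cmtm1 amounts to 0.0698 to 0.103 FPKM depending on the library, and all 8 libraries were below it, so no fold is given. This value is uncertain, because 1768 of the 2218 exonic bases of Cmtm1 (79.7%) are shared with Gm45711 or Cmtm2a. Gm45711 itself, all of whose 1660 exonic bases are shared, was listed at 0 in all 8 libraries. Among protein-coding genes whose every exonic base is shared with another gene of the same strand, 103 of 133 (77.4%) were listed at 0 in all libraries, against 31 of 116 (26.7%) of those with over 80% but not all of their bases shared and 16.2% of 15411 genes that share none. For genes wholly shared with the opposite strand alone it was 34 of 35 (97.1%). The counting rule and the use of strand are not given in the sources used here. The 450 exonic bases of Cmtm1 and the 703 of Cmtm2a that no other gene shares were therefore the part that could be measured most plainly. Were the fragments of Cmtm2a spread over those 703 bases alone, its FPKM would be 1.81 times higher, 10.6 to 17.4 FPKM in the fl/fl and 4.94 to 11.3 FPKM in the cKO libraries, with the same fold between groups.

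Cmtm3, the most abundant member of the chromosome 8 cluster, had 9.89, 13.3, 12.4 and 13.8 FPKM in fl/fl replicates 1 to 4 and 15.6, 16.4, 18.8 and 19.8 FPKM in cKO replicates 1 to 4. All 4 cKO libraries were above all 4 fl/fl libraries, and fl/fl replicate 1 was the lowest. A log2 fold change of 0.52 (SE 0.13) was obtained, which ranged from 0.42 without fl/fl replicate 1 to 0.58 without fl/fl replicate 4. Each value rests on 387 to 1004 fragments, and no exonic base of Cmtm3 is shared with another gene.

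Cmtm4, whose 3′ end faces that of Cmtm3, had 14.6, 7.91, 7.78 and 9.0 FPKM in the fl/fl libraries against 8.06, 8.58, 9.59 and 9.21 FPKM in the cKO libraries. Replicate 1 of the fl/fl group was high and the groups overlapped. For Cmtm4 the log2 fold change was -0.10 (SE 0.19) with that library and 0.11 without it.

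Cmtm6, the stabilizer of the Cd274 product, had 63.5, 36.6, 36 and 37.7 FPKM in the fl/fl libraries against 41.6, 42.7, 40.2 and 42.1 FPKM in the cKO libraries. Apart from fl/fl replicate 1, the fl/fl libraries were all below the cKO libraries. The log2 fold change was -0.02 (SE 0.17) with fl/fl replicate 1 and 0.18 without it, and it was 0.0037 with median centring and all libraries kept, so no direction is given for Cmtm6. Replicate 1 of the fl/fl group also had the lowest mitochondrial share of fragments, 0.464% against 2.20% to 3.74% in the other 7 libraries; its part in these values was not tested.

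Cmtm7, a neighbour of Cmtm6, had 1.68, 2.12, 1.70 and 2.30 FPKM in the fl/fl libraries against 1.93, 2.36, 2.27 and 2.64 FPKM in the cKO libraries. The groups overlapped and the log2 fold change was 0.23 (SE 0.16), between 0.16 and 0.31 with 1 library left out. Of its 3455 exonic bases 168 (4.86%) lie opposite an exon of Gm9888, and without strand the fragments there cannot be told apart.

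Cmtm8 had 0.404, 0.519, 0.357 and 0.431 FPKM in the fl/fl libraries against 0.516, 0.737, 0.523 and 0.727 FPKM in the cKO libraries, on 18 to 42 fragments per library. The groups overlapped, with cKO replicate 1 just below fl/fl replicate 2. In a wider fit over all genes with a mean above 0.1 FPKM the log2 fold change of Cmtm8 was 0.45 (SE 0.24), which the pseudocount of 0.1 compresses at such low levels.

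Seen as shares, the 3 testis-enriched members made up 12.5%, 17.6%, 27.9% and 15.7% of the summed FPKM of the 8 genes in the fl/fl libraries and 9.17%, 14%, 8.03% and 6.61% in the cKO libraries. The shares overlapped between the groups, since cKO replicate 2 lay above fl/fl replicate 1, whose sum of widely expressed members was the highest. The testis-enriched sums alone were 11.8 to 22.6 FPKM in the fl/fl and 5.27 to 11.5 FPKM in the cKO libraries. They did not overlap, with a small gap and in a family chosen by this contrast. The summed FPKM of the 5 widely expressed members was 90.0, 60.5, 58.2 and 63.2 in the fl/fl libraries and 67.7, 70.8, 71.4 and 74.5 in the cKO libraries, and Cmtm6 made up most of it.

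These are bulk values of whole testis, in which fewer cells of a type and less RNA per cell cannot be told apart. The study's single-cell RNA-Seq used testes collected slightly later and pooled by genotype. It reported a lower percentage of spermatocytes in the cKO testes, which the study read as a sign of spermatocyte loss. The 8 markers of pachytene spermatocytes summed to 1281 to 2037 FPKM in the fl/fl and 1102 to 1659 FPKM in the cKO libraries. Most of the sum came from Ybx2, Ldhc, Hspa2 and Piwil1. Of the 8, 1 (Ccna1) was lower in cKO libraries without overlap and 0 were higher without overlap. Hist1h1t was low, at 0.210 to 0.335 FPKM in the fl/fl and 0.323 to 0.893 FPKM in the cKO libraries, with overlap. Replicate 3 of the fl/fl group, where Cmtm2a and Cmtm2b were highest, had the highest sum of the 8 markers. The second highest sum, 1962 FPKM, was in fl/fl replicate 1, whose Cmtm2b was near that of replicates 2 and 4. The relation between this sum and the Cmtm2 pair was not tested. The 12 spermatid markers summed to 9.44 to 14.8 FPKM in the fl/fl and 10.9 to 12.8 FPKM in the cKO libraries, and Prm1, Prm2, Tnp1, Tnp2, Odf1, Acrv1 and Catsper3 were at 0 in at least 1 library, so Cmtm2a and Cmtm2b were measured in testes with little spermatid RNA.

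Beside Cmtm3, markers of somatic cells were examined. The 5 macrophage markers summed to 12.3, 19.9, 15.2 and 18.8 FPKM in the fl/fl libraries against 23.0, 23.9, 21.0 and 25 FPKM in the cKO libraries, without overlap, while single markers overlapped in 4 of 5. The mean log2 level of the list differed by 0.51 for macrophage, 0.66 for Leydig cell, 0.42 for endothelial, 0.19 for peritubular and 0.17 for Sertoli cell markers (cKO minus fl/fl). The sums of the 6 Leydig cell markers (16.5 to 37.9 against 28.6 to 46.7 FPKM) and the 5 endothelial markers (5.82 to 12.8 against 11.8 to 15.1 FPKM) overlapped between groups. The part of cell composition in the values of Cmtm3, or of any other member, was not tested.

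**Figure D3:**
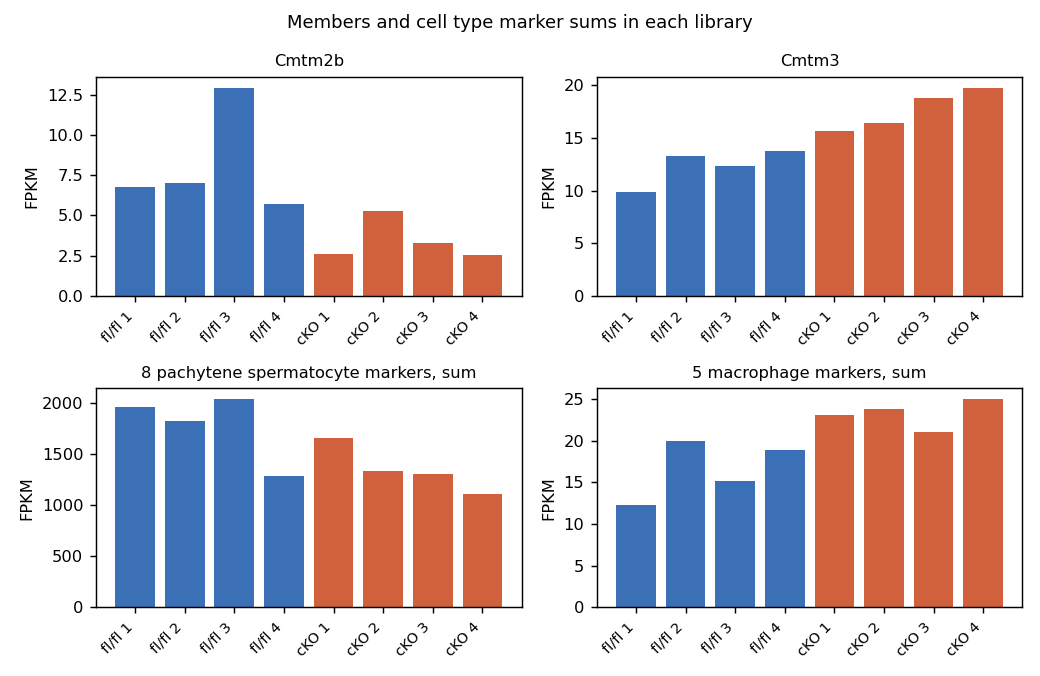
FPKM of Cmtm2b and Cmtm3 (top) and summed FPKM of 8 pachytene spermatocyte and 5 macrophage markers (bottom) in each library (blue, Sync-Spdya fl/fl; orange, Sync-Spdya cKO; 1 bar per library). Cmtm3 and the macrophage sum were higher in every cKO library, and the pachytene sum was highest in fl/fl replicate 3, as Cmtm2b was.

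Other genes with a MARVEL domain were tested as the nearest relatives outside the members. Of 21 such genes, Cmtm5 among them, 10 passed the filter on level, and 8 had a log2 fold change above 0 and 2 below, with a median of 0.12 against 0.01 over all genes tested. With limma 0 of the 10 passed an adjusted p below 0.05, and 0 did with voom on the recovered fragments. At an unadjusted p below 0.05, 3 were higher and 1 was lower, beside 5.89% and 5% of all genes tested. Cmtm5, the family gene that is not among the members, had 1 fragment in fl/fl replicate 3 and 1 in cKO replicate 3 and none elsewhere.

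Cklf, the only gene of this list in the chromosome 8 cluster, had 16.2, 13.6, 15.3 and 14 FPKM in the fl/fl libraries against 14.3, 10.1, 9.63 and 9.83 FPKM in the cKO libraries. Its cKO replicate 1 lay within the fl/fl range and the other 3 cKO libraries below it. Cklf had a log2 fold change of -0.44 (SE 0.14, limma adjusted p = 0.290), so the difference did not pass the test over all genes.

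The 3 MARVEL genes at the higher side did not pass it either. Syngr2, which encodes a vesicle protein of the synaptogyrin group, had 15.9 to 22.4 FPKM in the fl/fl and 23.6 to 28.5 FPKM in the cKO libraries without overlap (log2 fold change 0.43, SE 0.13, limma adjusted p = 0.273). Marveld1 had 2.57 to 3.23 FPKM in the fl/fl and 3.40 to 5.17 FPKM in the cKO libraries, also without overlap (log2 fold change 0.42, SE 0.16, limma adjusted p = 0.392). Myadm, a marker of myeloid differentiation, had 2.32 to 5.98 and 4.8 to 7.19 FPKM with overlap (log2 fold change 0.71, SE 0.26, limma adjusted p = 0.369). The most abundant MARVEL gene of the list, Syngr4, had 91.1 ± 25.2 FPKM in the fl/fl and 98.3 ± 17.3 FPKM in the cKO libraries.

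**Figure D4:**
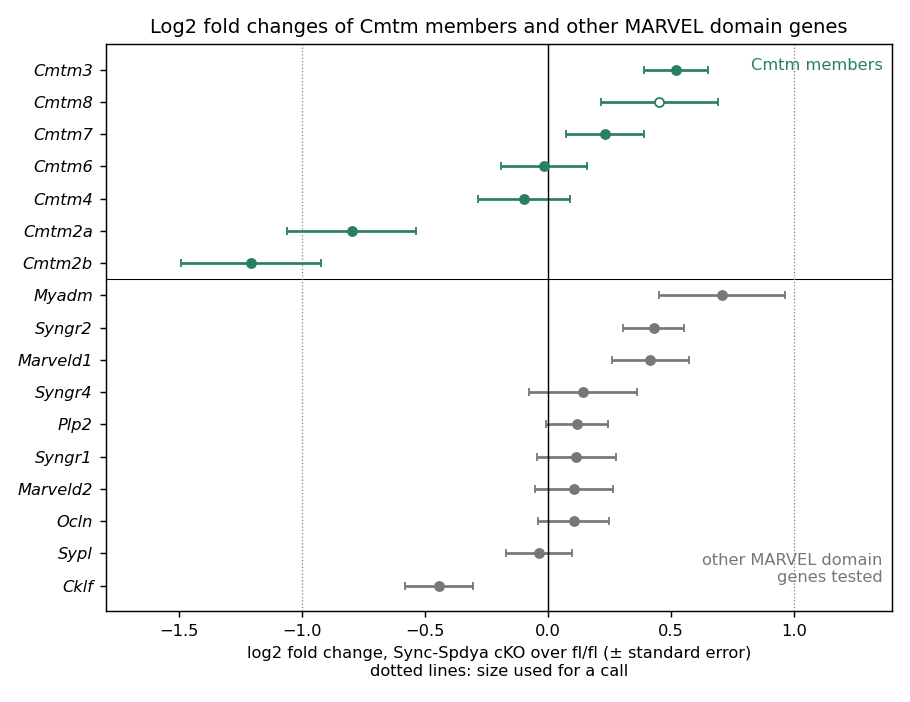
Log2 fold change of Sync-Spdya cKO over Sync-Spdya fl/fl testes with its standard error (n = 4 libraries each) for 7 Cmtm members (green; Cmtm8, open, from the wider fit) and the 10 other MARVEL domain genes tested (grey). Cmtm2b (-1.21) and Cmtm2a (-0.80) lie lowest, and of the other MARVEL genes Cklf lies lowest (-0.44).

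The genes around the 2 loci were examined to see how the members compare with their surroundings. Within 500 kb of a member lie 30 other protein-coding genes, of which 20 passed the filter, 10 on each chromosome. With limma 0 of the 20 passed an adjusted p below 0.05 (0 with voom). At an unadjusted p below 0.05, 2 were lower and 2 higher, beside 5% and 5.89% of all genes tested. The median log2 fold change was -0.07 on chromosome 8 and 0.03 on chromosome 9. The lower genes were Terb1 and Cklf, both on chromosome 8, and Cklf is also counted among the MARVEL genes above.

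Terb1 (chromosome 8, 104446719 to 104509910) encodes a protein that attaches meiotic telomeres to the nuclear envelope. It had 17.8, 8.19, 8.67 and 7.60 FPKM in the fl/fl libraries against 6.67, 5.58, 5.22 and 4.54 FPKM in the cKO libraries. The groups did not overlap and fl/fl replicate 1 was far above the rest. The log2 fold change was -0.85 (SE 0.25, limma adjusted p = 0.276) with all libraries, and -0.57 without fl/fl replicate 1.

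Cdh5 (chromosome 8, 104101625 to 104144511), an adhesion gene of endothelial cells that is also in the endothelial marker list, had 1.92 to 5.94 FPKM in the fl/fl and 5.63 to 7.57 FPKM in the cKO libraries (log2 fold change 0.72, SE 0.29, limma adjusted p = 0.413). Crtap (chromosome 9, 114375134 to 114390675), which encodes a cartilage-associated protein, had 10.1 to 13.3 and 11.5 to 14.4 FPKM (log2 fold change 0.29, SE 0.12, limma adjusted p = 0.444). Dync1li2, next to Cmtm4, had a log2 fold change of -0.17 (SE 0.10), and Dync1li1, next to Cmtm6, of 0.09 (SE 0.10), both with overlap.

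**Figure D5:**
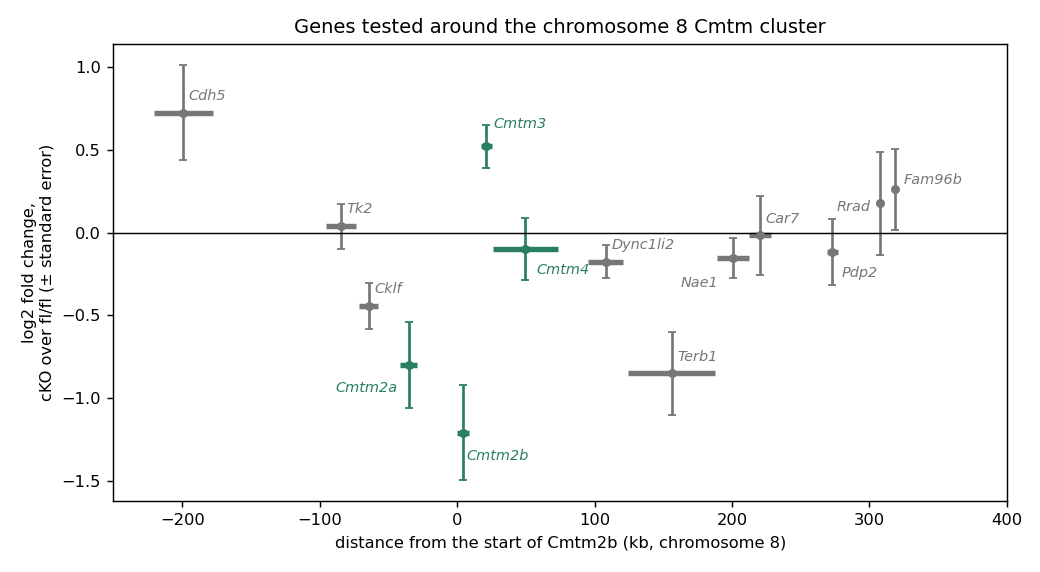
Log2 fold change (± standard error, n = 4 libraries each) of the 4 chromosome 8 Cmtm members in the fit (green) and 10 protein-coding neighbours (grey) against distance from the start of Cmtm2b in kb, each gene drawn at its length. Cmtm2b (-1.21), Terb1 (-0.85), Cmtm2a (-0.80) and Cklf (-0.44) have the lowest values, while Cmtm3, the nearest tested gene on the chromosome to Cmtm2b, has 0.52 and Cmtm4, the gene after Cmtm3, has -0.10.

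Genes for proteins reported to work with CMTM proteins were measured as well. Cd274, whose product CMTM6 and CMTM4 stabilize, had 3.81, 4.87, 4.54 and 5.24 FPKM in the fl/fl libraries against 4.20, 5.33, 3.99 and 3.37 FPKM in the cKO libraries, with overlap (log2 fold change -0.14, SE 0.16, limma adjusted p = 0.810). Rab5a, of early endosomes, had 9.85 to 15.4 and 10.2 to 11.6 FPKM (log2 fold change -0.08, SE 0.14, limma adjusted p = 0.874). Egfr, the epidermal growth factor receptor, was low at 0.136 to 0.614 and 0.319 to 0.624 FPKM, and its log2 fold change in the wider fit was 0.61 (SE 0.39, limma adjusted p = 0.670). Blnk, a B cell adaptor linked to CMTM7, had 5 to 14 fragments per library and Pdcd1lg2, a further checkpoint ligand, 0 to 5, so neither was tested.

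The genes whose pattern over the 8 libraries was most like that of the Cmtm2 pair were named by Pearson's r among the 12141 genes tested. For Cmtm2b these were Dzip1 (r = 0.98), Ccdc30 (0.98), Tekt2 (0.97), Cep164 (0.97) and Dhx40 (0.97). For Cmtm2a they were Cep164 (0.96), Lrrc63 (0.96), Cdk17 (0.96), Atp7b (0.95) and Gm5878 (0.95). Since they were picked for likeness over these same libraries, their difference between the genotypes is bound up with the choice and is given as a description. Dzip1, for example, had 2.69 ± 0.683 FPKM in the fl/fl and 1.35 ± 0.250 FPKM in the cKO libraries, and Tekt2 had 5.79 ± 1.04 and 3.16 ± 0.548 FPKM. With the group means removed, r stayed between 0.90 and 0.96. These correlations share depth and scaling across genes and are descriptions of 8 libraries.

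Spdya itself had a log2 fold change of 0.15 (SE 0.16, limma adjusted p = 0.787) over the whole gene. A deletion of exon 2 leaves the other exons in place, so this value does not check the labels. The libraries held 13978342 to 19583091 fragments on genes.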

How the data were processed

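Paired-end RNA-Seq was done on 8 whole testes, 4 per genotype, and the authors deposited FPKM values made with the software of the sequencing company. The submitters' processing notes name GRCm38 (mm10), and the aligner, the counting rule and the use of strand are not given in the sources used here. Fragments were recovered from FPKM and gene length, and 100% of nonzero values came out whole (tolerance 0.02). Poisson limits at 95% cover counting error only. Of the table's genes 99.8% were found in GENCODE vM21, and start and end agreed for 98.3% of those found.

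The test was limma 3.58.1 in R 4.3.3 (lmFit, then eBayes with trend) on log2(FPKM + 0.1), with no covariate, over the protein-coding genes that averaged above 1 FPKM in both groups, with p-values adjusted over all 12141 genes. Fold changes on this scale understate those of low genes. The fit was checked on simulated fragments before use, with the same dispersion in every library. The real libraries differed in spread, with array weights of 0.161 to 4.45, so the check does not give the fit's error on them. Promoter windows came from RefSeq (GRCm38.p6), matched by symbol for 8 of 8 members, and were aligned with Biopython 1.88. Figures were drawn with matplotlib 3.10.9.

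The members and all lists were chosen with earlier results of these data known. Named genes were the 8 members, the 5 genes most like Cmtm2a and the 5 most like Cmtm2b, MARVEL and neighbouring genes at an unadjusted p below 0.05 (up to 10 each), the partner genes and Spdya. Syngr4, Cmtm5, Dync1li1, Dync1li2 and Gm45711 were added after their values were seen. Between libraries of a group the chi-square of fragments per gene was at least 4.61, more than sampling noise, so each library counted as 1 sample. Alternatives were other pseudocounts, filters and scalings, array weights, voom, a replicate block and leaving out each library.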

Additional observations from a re-analysis of the deposited data

Results flagged for a closer look

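Among 102 groups of 4 values, 16 had 1 library whose gap to the nearest of the others, as a share of the group's range, exceeded Dixon's 95% critical value. Chance alone flags about 5% of such groups, and genes of 1 library are not independent.

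Replicate 3 of the fl/fl group was high for Cmtm2a (9.61 FPKM, the others 5.85 to 6.09), for the sum of the testis-enriched members (22.6 FPKM, the others 11.8 to 12.9), for Lrrc63 (5.57 FPKM, the others 3.46 to 3.61) and for Tekt2 (7.34 FPKM, the others 5.14 to 5.34). Replicate 1 of the fl/fl group was high for Cmtm6 (63.5 FPKM, the others 36 to 37.7), for the sum of the widely expressed members (90.0 FPKM, the others 58.2 to 63.2), for Terb1 (17.8 FPKM, the others 7.60 to 8.67) and for Crtap (13.3 FPKM, the others 10.1 to 10.2).

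In the cKO libraries, Cklf was high in replicate 1 (14.3 FPKM, the others 9.63 to 10.1), Marveld1 in replicate 3 (5.17 FPKM, the others 3.40 to 3.67) and Cdh5 in replicate 4 (7.57 FPKM, the others 5.63 to 5.80), while Rab5a was low in replicate 2 (10.2 FPKM, the others 11.5 to 11.6). The remaining flags rest on genes listed at 0 in the other 3 libraries of the group: Cmtm1 in cKO replicate 2 (0.0282 FPKM), Cmtm5 in fl/fl replicate 3 (0.0529 FPKM) and cKO replicate 3 (0.0490 FPKM), and Myadml2 in cKO replicate 1 (0.104 FPKM).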

How the results depend on the processing

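The log2 fold changes of Cmtm2a, Cmtm2b, Cmtm3 and Cmtm7 kept their direction under all 16 alternatives and moved by less than the spread between replicates. The wider filters and the replicate block could not change these estimates, so they are no check of them. That of Cmtm8 was 0.19 with a pseudocount of 1. Cmtm6 turned to 0.0037 with median centring, to 0.13 with array weights and to 0.18 without fl/fl replicate 1, and Cmtm4 turned to 0.13 with array weights and to 0.11 without fl/fl replicate 1, a library with an array weight of 0.161; with 1 library left out Cmtm4 ranged from -0.19 to 0.11 and Cmtm6 from -0.093 to 0.18. The number of genes called over the whole table was 2 as reported, 8 over all biotypes above 0.1 FPKM, 5 with no filter, 1 with median centring, 57 with array weights and 0 to 3 with 1 library left out; the cause was not tested. Array weights also brought Cklf, Myadm, Terb1 and Crtap, none of them a member, below an adjusted p of 0.05.

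Neighbours at an unadjusted p below 0.05 numbered 4 as reported and 2 to 6 with 1 library left out (2 without fl/fl replicate 3 and 2 without cKO replicate 4), and the MARVEL genes 3 to 4. Crtap lost that p in 8 alternatives, Marveld1 in 3, Myadm in 2 and Cdh5 in 2, all with the same direction. Both groups use the numbers 1 to 4, and the labels do not say that equal numbers are pairs. Libraries with the same number deviated together with r = 0.0757 to 0.406, over 0.1 in 3 of 4 pairs. Whether they share a source of variation was not tested, and the main fit did not take them as pairs. The choice matters for the calls: with the replicate block 0 genes were called over the whole table, against 2 without it. With this block 4 MARVEL genes and 3 neighbours had an unadjusted p below 0.05, and no member was called. Low counts limit Cmtm1, Cmtm5, Cmtm8, Blnk and Pdcd1lg2, and exons shared between genes limit Cmtm1 and Cmtm2a.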
